A study of Danio rerio with 6 samples.

Results

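The small RNA content of zebrafish embryos at the onset of gastrulation was described from the 3 libraries of F1-C embryos, the offspring of parents that had not been irradiated. The members are the 3 F1-C columns, out of 6 libraries in the series, in each of 4 deposited tables that hold mature miRNAs, piRNA clusters, small nuclear RNAs (snRNAs) and long intergenic non-coding RNAs (lincRNAs). Every F1-C library came from a pool of 100 wild type embryos of the AB strain, collected at 5.5 h post fertilization (hpf), the stage of 50% epiboly, when the cell sheet covers the upper part of the yolk. Whole embryos were pooled, so a level is an average over all cell types present, and fewer cells of a type and less RNA per cell cannot be told apart. The embryos of irradiated parents were not used. The report gives levels, shares and the spread of the 3 libraries, and no group was tested against another.

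miRNAs are short RNAs that guide Argonaute proteins to partly matching mRNAs. Each is cut from a hairpin precursor whose arms give a 5p and a 3p product, and as a rule only 1 of the 2 arms is kept in quantity. The miR-430 family is known in zebrafish for its burst of transcription when the embryonic genome switches on and for clearing maternal mRNAs. piRNAs are longer, bind Piwi proteins, silence transposons in the germline, and come from genomic clusters that are read from 1 or both strands. In eggs and early embryos they are largely a maternal supply. snRNAs form the core of the spliceosome, with U1, U2, U4, U5 and U6 in the major form and U11, U12, U4atac and U6atac in the minor form. lincRNAs are long transcripts without a known protein, and in libraries of size-selected short RNAs they are seen only as fragments.

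The miRNA table held 704953, 1099486 and 1167284 counts in F1-C replicates 1, 2 and 3. The piRNA clusters held 577504, 469295 and 604146 counts, the lincRNAs 108976, 129490 and 96906 counts, and the snRNAs 24212, 30257 and 26487 counts. miRNAs thus made up 58.3 ± 7.46% of the counts of the 4 tables (mean ± SD, n = 3), piRNA clusters 33.3 ± 6.93%, lincRNAs 6.77 ± 1.44% and snRNAs 1.62 ± 0.193%. The order of the 4 classes was the same in every library. These are shares of deposited counts and do not measure the composition of the small RNA. The piRNA total covers only the 171 clusters that had a partner in the other group. Reads that map to several places were treated differently between the tables. The snRNA and lincRNA tables also hold entries with the same counts, as described below. Replicate 1 stood apart in its balance of classes, with 0.819 piRNA cluster counts per miRNA count against 0.427 in replicate 2 and 0.518 in replicate 3. Its miRNA total was the lowest, and the highest miRNA total was 1.66 times as large. Shares below are given within a class, where this imbalance does not enter, and values without each library are given in the closing section where they move a result.

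**Figure D1:**
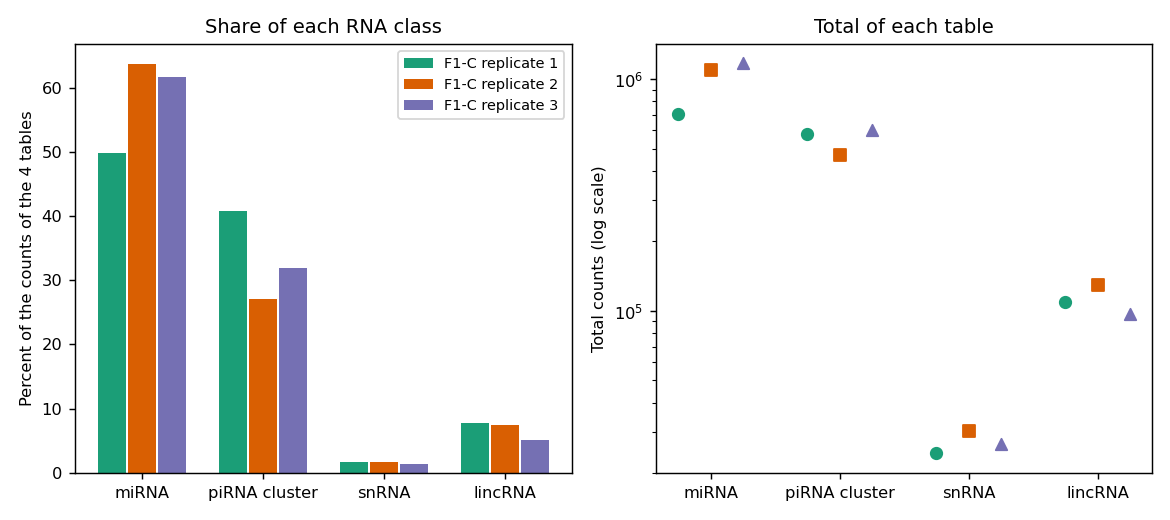
Left, the percent of the counts of the 4 tables held by each RNA class, with 1 bar per F1-C library. Right, the total counts of each table on a log axis, with 1 point per library. Replicate 1 has the lowest miRNA share (49.8%) and the highest piRNA cluster share (40.8%), and the order of the classes is the same in all 3.

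Of 464 listed miRNA entries, 366 had a count in at least 1 library and 126 had at least 30 counts in every library. The 171 piRNA clusters had counts in every library by construction, since a cluster was kept only when found in all 3. Of 1315 lincRNAs, 969 had a count and 103 had at least 100 counts in every library. Of 1229 snRNA entries, only 145 had a count, 1084 were at 0 in all 3 libraries and 26 had at least 100 counts in every library. Counts behind a value are quoted below because they limit its precision.

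The miR-430 family, 17 of the listed entries, took 87.1%, 87.6% and 85.8% of the miRNA counts. The remaining 447 entries shared 12.9%, 12.4% and 14.2%, or 13.2 ± 0.931%, and they are described from here on as percent of the counts outside miR-430. 8 entries named miR-430a-n-5p had the same counts as each other in replicate 1 (11400) and in replicate 2 (22033). 7 of them were also equal in replicate 3. With entries equal in every library counted once, the share outside miR-430 was 14.8%. Multiply mapped reads were shared among their positions here, so counting equal entries once can leave reads out. 1 of the 8, miR-430a-11-5p, had 43013 counts in replicate 3, where its 7 companions had 21507 each. Setting it to its companions' value gave a share outside miR-430 of 13.3%.

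Outside miR-430, a few miRNAs held most of the counts. 349 of the 447 entries had a count and 98 were at 0 in all 3 libraries. The leading miRNA held 24.1 ± 1.31%, the leading 5 held 54.1 ± 1.86%, the leading 10 held 67.9 ± 0.481% and the leading 20 held 79.6 ± 0.389%. 39 miRNAs were needed to reach 90% of the counts and 134 to reach 99%. The same 10 entries filled the top 10 of every library, and 17 entries were in the top 20 of every library.

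The leader was miR-22a-3p, a conserved miRNA best known from muscle and heart. It had 20546, 33918 and 41096 counts in replicates 1, 2 and 3, or 22.6%, 24.9% and 24.8% of the counts outside miR-430. It was far ahead of every other miRNA in each library, and above the sum of the next 2. Those were the 2 arms of miR-92a, a member of the miR-17 to miR-92 clusters that promote proliferation. miR-92a-3p had 8769, 15591 and 16878 counts and a mean share of 10.4 ± 0.925%. miR-92a-1-5p, from the other arm of 1 of its precursors, had 9547, 13932 and 16954 counts and a mean share of 10.3 ± 0.153%. Their order changed between libraries, so neither arm led in all 3.

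miR-2189-3p came next, with 5373, 6971 and 8609 counts (5.40 ± 0.434%). It was the fourth in every library, and no role is given here for it. miR-100-5p, whose family is encoded next to let-7 and miR-125 genes, had 3229, 5657 and 6901 counts (3.95 ± 0.351%). miR-7a-5p, known from brain and endocrine pancreas, had 3703, 4472 and 6010 counts (3.66 ± 0.394%), so that its range overlapped that of miR-100-5p. miR-7b-5p followed with 3153, 3821 and 5107 counts (3.11 ± 0.332%). The ratio of miR-7a-5p to miR-7b-5p was 1.17 in replicate 1, 1.17 in replicate 2 and 1.18 in replicate 3. The unrelated miR-152-3p and let-7e-5p also kept a ratio steady within 1% (2.29, 2.29 and 2.31), and whether miR-7a-5p and miR-7b-5p share reads was not tested.

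The next 3 were close to each other. miR-200b-3p, an epithelial miRNA that targets zeb transcription factors, had 2326, 2996 and 3874 counts (2.36 ± 0.180%). miR-21-5p, known in mammals for its rise in many tumours, had 2401, 2804 and 3744 counts (2.32 ± 0.295%), and miR-20a-2-5p, of the miR-17 type, had 2305, 3010 and 3500 counts (2.28 ± 0.220%). Their order differed between libraries, so ranks 8 to 10 are not separated by these data. Ranks 11 to 20 were filled by miR-200a-3p (1.77%), miR-148-3p (1.70%), miR-99-5p (1.36%), miR-203b-3p (1.33%), miR-30c-5p (1.09%), miR-10b-5p (1.00%), miR-200a-5p (0.957%), miR-199-5p (0.835%), miR-141-3p (0.834%) and miR-716-3p (0.791%). 16 entries in all were above 1% of the counts outside miR-430.

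**Figure D2:**
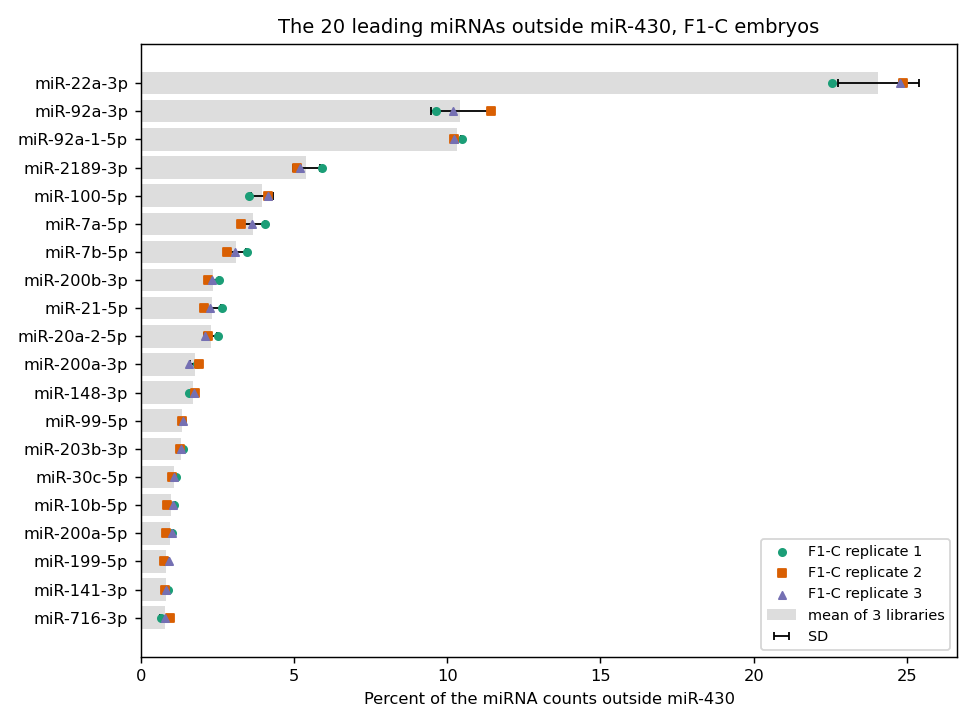
Percent of the miRNA counts outside miR-430 held by each of the 20 leading miRNAs in F1-C embryos. Bars are means of 3 libraries, whiskers are SDs and points are the libraries. miR-22a-3p lies between 22.6% and 24.9%, the 2 arms of miR-92a lie near 10% and every entry from rank 11 on is below 2%.

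A miRNA recognises targets mainly through its seed, bases 2 to 8. Seeds are shown for miRNAs at high and at low rank in these embryos, as spelled for the human miRNA of the same name in the target table of the study. The letters are 5′ to 3′, all in capitals because the whole run is the seed.
human miR-21-5p: AGCUUAU
human miR-200a-5p: AUCUUAC
human miR-141-3p: AACACUG
human miR-204-5p: UCCCUUU
human miR-205-5p: CCUUCAU
human let-7g-5p: GAGGUAG
human miR-1-3p: GGAAUGU
human miR-150-5p: CUCCCAA
The zebrafish entries of the same names ranked 9 (miR-21-5p), 17 (miR-200a-5p), 19 (miR-141-3p), 23 (miR-204-5p), 31 (miR-205-5p), 69 (let-7g-5p), 137 (miR-1-3p) and 132 (miR-150-5p) outside miR-430. The AACACUG seed is the one that miR-141-3p is known to share with miR-200a-3p, and with miR-200a-5p and miR-200b-3p the miR-200 family had 4 products in the top 20.

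The labelled stage, before organs form, was set against lists of miRNAs that mark differentiated tissues in later zebrafish. These lists held 106 entries, of which 26 had at least 30 counts in every library and 24 were at 0. Of all 447 entries outside miR-430, 109 had at least 30 counts in every library and 98 were at 0. Those are similar proportions, so the tissue lists as a whole were not detected less often than other miRNAs. Together the tissue lists held 19.6 ± 1.09% of the counts outside miR-430, most of it in 3 lists. The epithelium list (miR-200, miR-141 and miR-429) held 6.20 ± 0.302%, with 5 of 10 entries at the minimum. The endocrine list (miR-7 and miR-375) held 6.87 ± 0.722%, almost all of it miR-7a-5p and miR-7b-5p, while miR-375-3p, the islet marker, had 83, 144 and 156 counts. The epidermis list (miR-203 and miR-205) held 2.60 ± 0.111%, with 4 of 6 entries at the minimum, led by miR-203b-3p and miR-203a-3p (0.720 ± 0.0504%).

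The muscle list (miR-1, miR-133, miR-206 and miR-499) held 0.0338 ± 0.00297%, the lowest of the tissue lists. 8 of its 12 entries were at 0 and none reached 30 counts in every library. miR-1-3p, the main miRNA of differentiated muscle, had 16, 32 and 27 counts, and miR-206-3p had 8, 9 and 4. The blood list (miR-144, miR-451, miR-223, miR-142 and miR-150) held 0.0667 ± 0.00728% with none of 8 entries at the minimum, and its erythroid member miR-451-5p had 13, 22 and 27 counts. The endothelial miR-126a-3p had 28, 51 and 103 counts, and the liver miRNA miR-122-5p had 12, 16 and 27. The entries named here with their counts were above 0 in every library, and none of them passed 103 counts. Other members of these lists were at 0 in some libraries, such as miR-133a-3p (6, 0 and 12 counts) and miR-144-3p (0, 0 and 4).

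The neural list was intermediate. It held 1.09 ± 0.0926% with 5 of 23 entries at the minimum and 6 at 0. Its leader was miR-124-2/3/5-5p, the arm opposite to the known neuronal product, with 339, 606 and 582 counts. miR-124-3p, that neuronal product, was at 0 in replicates 1 and 3 and had 2.98 estimated counts in replicate 2. miR-9-5p, expressed in neural progenitors, had 250, 388 and 477 counts, and miR-128-3p had 201, 375 and 453. The Hox-linked list (miR-10 and miR-196), encoded within Hox clusters that pattern the body axis, held 1.20 ± 0.139%, led by miR-10b-5p with 988, 1189 and 1751 counts. The heart and mesenchyme list held 1.24 ± 0.131%, of which miR-199-5p had 725, 1050 and 1559 counts and miR-199-3p 252, 415 and 561. The liver and gut list held 0.199 ± 0.00598%, led by miR-192-5p with 112, 179 and 246 counts. The sensory list held 0.0826 ± 0.0238%, led by miR-182-5p with 58, 46 and 86 counts.

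Broadly expressed families made up most of the rest, at 68.8 ± 1.22% over 179 entries, of which 62 had at least 30 counts in every library. The miR-17 type was the largest at 25.9 ± 0.764%, with 15 of 30 entries at the minimum. The miR-22 family had 24.2 ± 1.32%, nearly all of it miR-22a-3p. It was placed among the broad families and not in the muscle or heart list, although it is best known from those tissues. The split between tissue and broad lists therefore depends on how the lists were drawn. The miR-99, miR-100 and miR-125 family held 5.89 ± 0.346%, miR-30 held 2.37 ± 0.148%, miR-148 and miR-152 held 2.34 ± 0.102%, and miR-146, an inducible regulator of immune signalling, held 1.04 ± 0.200%. let-7, which accumulates as cells differentiate, held only 0.839 ± 0.0367% over 24 entries, led by let-7e-5p with 246, 340 and 456 counts. The 162 entries in none of the lists held 11.6 ± 0.132%, of which miR-2189-3p was the largest.

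The 3p arms held 57.5 ± 1.48% and the 5p arms 42.5 ± 1.48% of the counts outside miR-430. miR-22a-3p alone held 24.1% of these counts, which is more than the lead of the 3p arms, so that lead rested on 1 entry. For precursors with a 5p and a 3p entry of exactly the same name, the 5p share of both arms was taken. 139 such precursors were listed, and 64 had at least 30 counts over both arms in every library. 40 of the 64 kept more than 90% in 1 arm in every library, 22 of them in the 5p and 18 in the 3p arm. The 5p arm was above 50% in every library for 32 precursors and the 3p arm for 28. The remaining 4 were not on the same side of 50% in every library, and 1 of them, miR-363, was at exactly 50% in replicate 1 and below it in the others. For 51 of the 64 the 5p share stayed within 5 percentage points over the 3 libraries. Exact names leave out precursors whose arms are named differently, such as miR-100 (5p share 99.7%), miR-21 (98.8%) and miR-19b (2.03%). With the locus number taken off the name, more precursors met the count minimum, and 57 of them kept more than 90% in 1 arm in every library. The 5p arm was then above 50% in every library for 46, and the number for the 3p arm was not counted.

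Among the precursors that kept the 3p arm, miR-22a had 13, 32 and 25 counts of its 5p arm beside 20546, 33918 and 41096 counts of its 3p arm, a 5p share of 0.0728 ± 0.0187%. A separate entry, miR-22a-2-5p, had 29, 37 and 51 counts, and with it added the 5p share was 0.197 ± 0.0109%. miR-2189 had 3, 3 and 4 counts of its 5p arm (0.0484 ± 0.00662%). miR-200b had a 5p share of 0.795 ± 0.172%, miR-148 of 1.08 ± 0.361% and miR-203b of 3.44 ± 0.486%. With names matched exactly, miR-141, miR-203a, miR-152, miR-101a and miR-27b completed the 10 with the most counts, with mean 5p shares between 0.0425% and 2.99%. Their other arm was thus at or near the limit of detection, or below a few percent, in all 3 libraries.

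Among those that kept the 5p arm, miR-7b had 4, 0 and 4 counts of its 3p arm beside 3153, 3821 and 5107 of its 5p arm, a 5p share of 99.9 ± 0.0639%. miR-20a-2 had a 5p share of 98.8 ± 0.307% and miR-30c of 99.97 ± 0.0546%. For miR-204 and miR-724 no count of the 3p arm was found in any library. With names matched exactly, miR-735, miR-146a, miR-205, miR-146b and let-7e made up the rest of the 10 with the most counts. The lowest of them, miR-146a, had a 5p share of 93.6 ± 0.584%.

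The 8 precursors whose arms were balanced, with 30 to 70% of the counts in the 5p arm in every library, were headed by miR-200a. It had 925, 1133 and 1700 counts of its 5p arm and 1666, 2610 and 2617 of its 3p arm, a 5p share of 35.1 ± 4.58%. Its relatives miR-200b, miR-200c and miR-141 all kept more than 99% in the 3p arm on average, so that within 1 family of similar hairpins the arm use differed. miR-30e had a 5p share of 53.8 ± 2.64%, with 244, 292 and 298 counts of its 5p arm, whereas miR-30c kept the 5p arm. miR-17a stood at 67.8 ± 1.38% and miR-16c at 43.1 ± 0.536%, the steadiest of the 8. miR-16b was at 57.5 ± 6.46%, miR-457a at 44.2 ± 9.19%, miR-222a at 57.5 ± 6.82% and miR-363 at 42.2 ± 7.21%, each on fewer counts and with a wider spread. miR-27a had the widest spread of all, at 74.0%, 43.9% and 53.2% in the 5p arm, on 10, 33 and 44 counts of its 3p arm.

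Some precursors stood between these classes without changing side. miR-199 had a 5p share of 73.1 ± 1.31%, miR-725 of 27.2 ± 0.430%, miR-30d of 76.6 ± 0.750%, miR-181a of 87.4 ± 0.945% and miR-25 of 12.1 ± 0.471%. Some arms are listed by locus while the other arm is listed for the whole family. When the locus number was taken off the name, 6 of 62 precursors found under both rules had other counts and none changed its class of arm use. miR-181a moved most, to 76.3%, 75.6% and 72.5% in the 5p arm, since miR-181a-3-3p (70, 97 and 141 counts) then joined its 3p arm. miR-92a could be placed only in this way. Its 5p arms had 9908, 14430 and 17511 counts, its 3p arm had 8769, 15591 and 16878, and the 5p share was 53.0%, 48.1% and 50.9%, or 50.7 ± 2.50%. It was by this measure the most abundant balanced precursor outside miR-430.

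**Figure D3:**
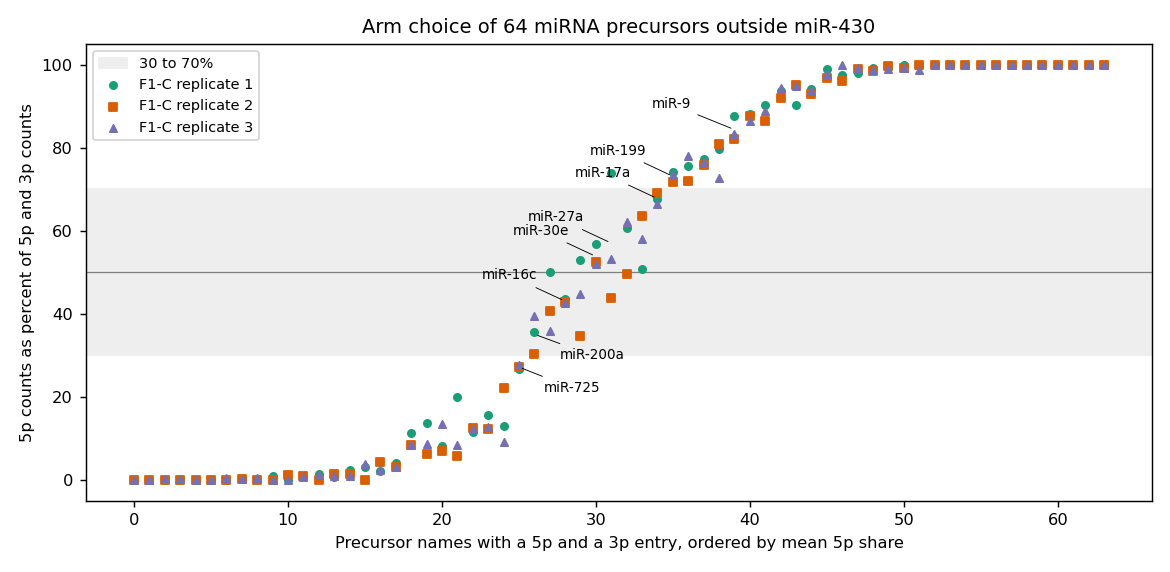
The 5p counts as percent of the 5p and 3p counts for 64 miRNA precursors outside miR-430, ordered by their mean, with 1 point per F1-C library and a grey band from 30 to 70%. 18 precursors lie below 10% and 22 above 90% in all 3 libraries, and the points of the libraries lie close together except in the middle of the range.

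piRNA clusters were given on genome build GRCz10. The table pairs each F1-C cluster with a cluster of the other group. Its F1-C cluster numbers run up to 303, so the 171 clusters are the subset that had a partner, and the others were not analysed here. The coordinates and lengths used are those of the F1-C clusters. They covered 1915.8 kb, from 4.14 to 64.0 kb each with a median of 9.02 kb. Density is given as counts per kb after scaling each library to 1000000 cluster counts.

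The median density over the 171 clusters was 314, 315 and 329 counts per kb, or 319 ± 7.99. The lower quartile was 257 ± 6.03 and the upper quartile 498 ± 4.84. 14 clusters were above 1000 counts per kb, and 9 of these were on chromosome 4. Density went with length only weakly across clusters, with a Spearman rho of 0.348 and a Pearson r of 0.316 on log2 values over 171 clusters, which share their libraries. The 10 clusters with the most counts held 28.8 ± 0.191% of all cluster counts, and 25 clusters held 50%.

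The densest was cluster 178c at chr4:45431099-45449941, read from the minus strand over 18.8 kb. It had 22164, 18320 and 20492 counts, or 2037, 2072 and 1800 counts per kb in replicates 1, 2 and 3. Cluster 159c at chr4:29601046-29605599 was short, at 4.55 kb, and had 1873, 1805 and 1820 counts per kb. Cluster 58c at chr17:40712229-40728017, from the plus strand, had 1744, 1782 and 1634. The ranges of 178c and 159c overlap, so the lead is not separated by these data. The rest of the 10 densest were 173c, 194c, 187c and 171c on chromosome 4, 124c on chromosome 22, 271c on chromosome 7 and 276c on chromosome 8, with means from 1281 to 1593 counts per kb. Of these, 171c is set apart by its spread, described below.

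By total counts the order was different. Cluster 113c at chr2:15152000-15216011, the longest at 64.0 kb and read from the minus strand, had 31507, 27224 and 35680 counts, or 5.72 ± 0.236% of all cluster counts, at a density of 894 ± 36.8 counts per kb. Cluster 178c was next with 3.71 ± 0.278%, then 173c with 2.85 ± 0.350%, 58c with 2.72 ± 0.121% and 258c on chromosome 6 with 2.63 ± 0.0377%. Clusters 65c and 66c lie next to each other on chromosome 17, at chr17:49443210-49466990 and chr17:49474168-49509396, and held 2.21 ± 0.0349% and 2.36 ± 0.0397%. Only 3 clusters, 178c, 173c and 58c, were in the top 10 by density and by counts.

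Clusters lay on 24 chromosomes, and none of the 171 on chromosome 15. Chromosome 4 had 49 clusters, 28.7% of all, and 581.8 kb, 30.4% of the covered length. It held 36.9%, 37.8% and 36.4% of the cluster counts, or 37.1 ± 0.676%. Its clusters had a pooled density of 637 ± 11.6 counts per kb, where those of all other chromosomes had 472 ± 5.06, and the ranges of the 3 libraries did not overlap. The median over single clusters differed less, at 357 on chromosome 4 and 302 elsewhere, and the pooled excess was not shared by all strand classes, as given below. All 49 lay between positions 28762004 and 75424026, on the long arm, which is known in zebrafish as a repeat-rich, late-replicating region. 15 of the gaps between neighbouring clusters there were under 100 kb.

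Chromosome 18 had 17 clusters but only 6.16 ± 0.124% of the counts, at 353 ± 7.12 counts per kb. Chromosome 8 had 15 clusters and 9.90 ± 0.254% of the counts, at 566 ± 14.5 counts per kb, and chromosome 17 had 10 clusters and 9.17 ± 0.108%, at 704 ± 8.26. Chromosome 6 had 14 clusters and 6.91 ± 0.157%. On chromosome 2, 1 cluster of 4, 113c, made most of a pooled density of 721 ± 32.3 counts per kb, and the median of its 4 clusters was 315. The highest pooled value, 744 ± 66.0 on chromosome 13, was that of a single cluster. Chromosome 10 was the lowest at 118 ± 6.18, with 2 clusters, and held the least dense of all, 12c, with 73.7, 88.3 and 81.2 counts per kb.

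84 clusters were read from the minus strand, 44 from the plus strand and 43 from both. The minus clusters held 54.7 ± 0.759% of the counts on 49.6% of the length, at 575 ± 7.99 counts per kb. The plus clusters had 510 ± 12.9 and the clusters of both strands 440 ± 4.28 counts per kb. On chromosome 4, 23 minus clusters had 827 ± 19.2 counts per kb, 15 plus clusters 528 ± 35.8 and 11 clusters of both strands 364 ± 14.2. On the other chromosomes the minus clusters had 467 ± 7.77, the plus clusters 498 ± 16.6 and the clusters of both strands 464 ± 3.30 counts per kb.

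**Figure D4:**
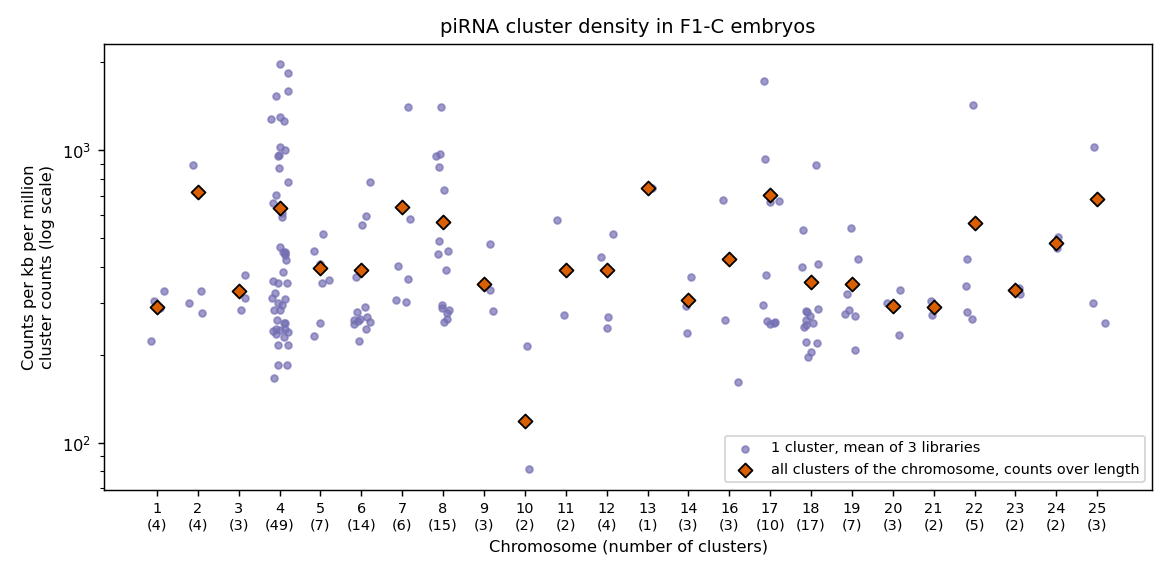
Density of the 171 piRNA clusters in F1-C embryos by chromosome, on a log axis in counts per kb per 1000000 cluster counts. Small points are clusters (mean of 3 libraries), diamonds are the counts of all clusters of a chromosome over their length, and the number of clusters is given in brackets. Chromosome 4 has 49 clusters and the densest one, near 1970, and chromosome 10 has the lowest diamond, near 118.

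Among snRNAs, U1 and U2 took most of the counts. U1, which recognises the 5′ splice site, had 12921, 15388 and 12251 counts, or 53.4%, 50.9% and 46.3% of the snRNA counts (50.2 ± 3.61%). U2, which pairs with the branch site, had 9293, 12142 and 11426 counts, or 38.4%, 40.1% and 43.1% (40.5 ± 2.41%). U1 was above U2 in every library, by a ratio of 1.39, 1.27 and 1.07. U5 had 4.39 ± 1.30%, U4 2.39 ± 0.251% and U6 1.61 ± 0.203%. U5 had 3.20%, 4.19% and 5.77% in replicates 1, 2 and 3, so its lead over U4 was wider than the spread of U4 but set mostly by replicates 2 and 3.

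The order of U1 and U2 depended on how copies were counted. Entries of 1 family are near-identical genes, and several had the same counts. U1.30 on chromosome 8 had 2990, 3550 and 2824 counts, and U1.87, U1.63 and U1.78, which lie within a short stretch of chromosome 9, had 2989, 3550 and 2824 each. With entries of identical counts taken once, U1 fell to 38.0 ± 3.18% and U2 stood at 48.9 ± 1.61%, so that U2 led in every library. The largest U1 entry held 23.1% of its family and the largest U2 entry, U2.9 on chromosome 6 with 1397, 1925 and 1437 counts, held 14.4%. Level ratios between families are therefore not set by these counts.

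Few copies were seen. 75 of 336 U1 entries had a count and 8 had at least 100 in every library. The corresponding numbers were 13 and 10 of 15 for U2, 15 and 5 of 144 for U5, 11 and 1 of 30 for U4, and 23 and 1 of 694 for U6. U4.29 on chromosome 4 alone held 71.0% of the U4 counts, with 478, 412 and 463. U6, by far the most numerous family in the annotation, was led by U6.14 on chromosome 9 with 108, 156 and 121 counts. 8 U2 copies on chromosome 2 held 47.9%, 41.5% and 52.5% of the U2 counts, so the balance between them and the copies elsewhere varied between libraries.

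Fragments of minor spliceosome snRNAs were rare among the snRNA counts. U11, U12, U4atac and U6atac together held 0.768%, 0.896% and 0.985% of the snRNA counts. U12, from 1 entry on chromosome 3, had 107, 200 and 170 counts (0.582 ± 0.121%), U11 had 46, 34 and 41, and U6atac 33, 37 and 50. U4atac had 0 of 24212, 0 of 30257 and 0 of 26487 counts, which allows shares of up to 0.0124%, 0.00992% and 0.0113% when 3 counts are taken as the limit of a 0. U7, which processes histone mRNAs and is not part of the spliceosome, had 7, 6 and 5 counts over 4 entries. Such limits and low counts cover counting error only.

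lincRNA counts were concentrated in a few transcripts. The leading 1 held 17.1 ± 2.44%, the leading 5 held 35.1 ± 1.63%, the leading 10 held 48.5 ± 1.47% and the leading 20 held 63.8 ± 0.722%. 11 lincRNAs were needed for 50% and 90 for 90% of the counts. The same 8 were in the top 10 of every library, and ranks 1 and 2 were the same in all 3.

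The leader was ENSDART00000151198.3, named si:dkey-153m14.1 by the study, at chr20:55338635-55339525 on the minus strand of GRCz10. It had 17709, 25635 and 14641 counts, or 16.3%, 19.8% and 15.1% of the lincRNA counts. It was also the densest, with 191379 ± 27439 counts per kb after scaling to 1000000 lincRNA counts, over 0.891 kb. A stretch of it is shown because it carries a run of letters that is known from the large subunit ribosomal RNA, in the conserved hairpin known as the sarcin-ricin loop. It covers positions 614 to 742 of the transcript as aligned in a supplementary file of the study, 5′ to 3′, with the 9 letters AGTACGAGA in capitals.
ENSDART00000151198.3: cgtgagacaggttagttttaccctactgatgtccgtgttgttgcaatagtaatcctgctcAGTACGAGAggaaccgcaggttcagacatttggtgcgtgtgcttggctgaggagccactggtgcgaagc
Of the 10 lincRNAs whose sequence that file holds, searched on both strands, only this one had the 9 letters. 762 of its bases were aligned there and 57.3% of them were G or C, where the other 9 had between 35.7% and 48.0%. The match is a description of the letters, and the counts cannot be divided between the lincRNA and any ribosomal RNA.

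ENSDART00000165314.2, at chr7:24770920-24775595, had 7050, 8558 and 6802 counts (6.70 ± 0.286%). The next 3 were all on chromosome 4. ENSDART00000194944.1 at chr4:48698458-48699426 had 4166, 4698 and 4240 counts (3.94 ± 0.388%), ENSDART00000194589.1 at chr4:44767885-44769009 had 4442, 4589 and 3667 (3.80 ± 0.267%), and ENSDART00000194285.1 at chr4:60953572-60954917 had 4199, 4380 and 3502 (3.62 ± 0.235%). Their ranges overlapped, so ranks 3 to 5 are not separated. ENSDART00000156268.3 on chromosome 8 had 3645, 3885 and 3434 counts (3.30 ± 0.275%).

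Ranks 7 to 15 held between 1.42% and 2.63% each. They were ENSDART00000154375.2 on chromosome 3, ENSDART00000194322.1 on chromosome 4, ENSDART00000194896.1 on chromosome 5, ENSDART00000194224.1 on chromosome 9, ENSDART00000164487.2 on chromosome 12, ENSDART00000194081.1 on chromosome 6, ENSDART00000157228.2 on chromosome 17, ENSDART00000148063.3 on chromosome 19 and ENSDART00000194415.1 on chromosome 23. Spans in the top 15 ran from 0.759 to 172.5 kb, and 4 were over 10 kb. Whether counts go with span was not tested. Per kb of span the leading 5 were ENSDART00000151198.3, ENSDART00000194944.1 (40682 ± 4001 counts per kb), ENSDART00000194589.1 (33790 ± 2369), ENSDART00000194322.1 (33292 ± 4004) and ENSDART00000194285.1 (26868 ± 1748), 4 of them on chromosome 4. ENSDART00000194896.1, ninth by counts, had 144 ± 13.0 counts per kb over its 172.5 kb. malat1, a nuclear lincRNA conserved from fish to mammals, had 258, 343 and 255 counts and ranked 59.

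**Figure D5:**
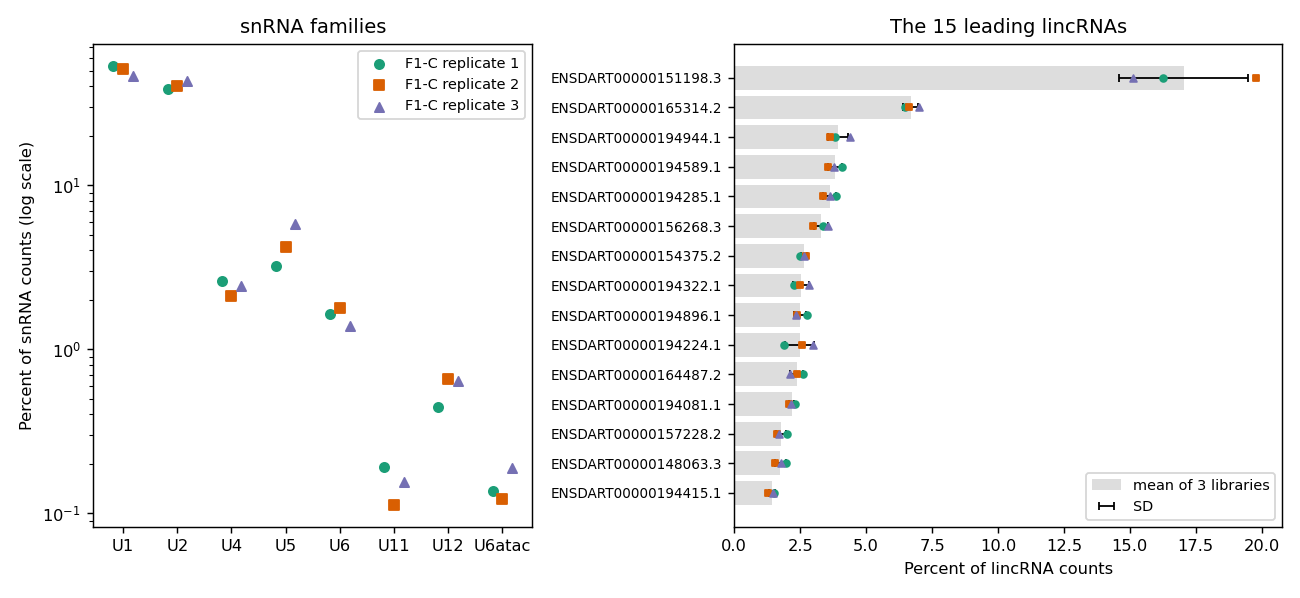
Left, percent of the snRNA counts held by each family on a log axis, with 1 point per F1-C library. Right, percent of the lincRNA counts held by the 15 leading lincRNAs (bars are means of 3 libraries, whiskers SDs and points libraries). U1 and U2 lie between 38.4% and 53.4%, all other families lie below 6%, and the leading lincRNA lies between 15.1% and 19.8%.

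Some lincRNAs overlapped piRNA clusters. Only 8 of the 1315 lincRNAs, 0.608%, overlapped 1 of the 171 clusters by at least 1 base, and they held 15.5%, 14.2% and 15.2% of the lincRNA counts, with an SD of 0.662 percentage points. These are counts over the whole span. 6 of the 8 lay wholly within a cluster and held 11.8%, 10.4% and 11.4%, while ENSDART00000154375.2 had 43.7% and ENSDART00000150672.2 46.5% of its span inside. The pooled density of the 8 was 2851 ± 126 counts per kb, where the other 1307 lincRNAs had 34.0 ± 0.265. All 8 had at least 100 counts in every library, as did 95 of the other 1307. The density of the 1307 pools the spans of all of them, of which 961 had a count. Their median span was 4.97 kb, where that of the 8 was 2.75 kb. A pooled density divides by total span, to which long spans add most, so the medians do not give the part of length. Well-counted lincRNAs outside clusters were not compared on their own. ENSDART00000194944.1 lies wholly within cluster 184c and ENSDART00000194589.1 wholly within cluster 176c. 5 of the 8 were annotated on the strand opposite to the cluster, 1 on the same strand and 2 in clusters of both strands. Counts in the 2 tables were made separately, and whether the same reads entered both was not tested. ENSDART00000194155.1, wholly within cluster 185c, had 92.4%, 130% and 80.6% of the counts of that cluster in replicates 1, 2 and 3. A part above the whole shows that the 2 tables did not count reads alike. The other lincRNAs wholly within a cluster had means of 4.26% to 37.5%. All lincRNAs of chromosome 4, 128 entries or 9.73% of all, held 22.4 ± 1.09% of the counts.

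32 pairs of lincRNAs overlapped on opposite strands, and in 5 of them both members had at least 100 counts in every library. The counts of 3 of these 5 pairs were equal within 1 count in every library. ENSDART00000135637.2 (si:dkeyp-116h7.2) on the minus and ENSDART00000154612.2 (si:dkeyp-116h7.4) on the plus strand of chromosome 21 overlap, and had 1031, 1211 and 854 against 1030, 1211 and 854 counts. ENSDART00000142034.2 and ENSDART00000153803.3 (si:ch73-112l6.6) overlap on opposite strands of chromosome 21, and had 148, 206 and 176 against 147, 206 and 176 counts. ENSDART00000194925.1 and ENSDART00000194148.1 have the same span on opposite strands of chromosome 11, and both had 290, 299 and 236 counts. In the other 2 pairs the counts were close but not equal, at 215, 235 and 190 against 203, 206 and 172 for ENSDART00000164527.2 and ENSDART00000169082.2, and at 126, 176 and 125 against 119, 173 and 121 for ENSDART00000172746.2 and ENSDART00000195002.1. The snRNA copy U6.1 lies inside ENSDART00000142034.2 and ENSDART00000153803.3 and had 94, 127 and 77 counts in the snRNA table. No snRNA entry lay inside a piRNA cluster.

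To see whether any library was a copy of another, the counts were compared in pairs. A chi-square of the counts per degree of freedom, which is near 1 when libraries differ by counting error alone, was between 31.6 and 49.5 for pairs of libraries over miRNAs, 32.5 and 65.3 over piRNA clusters, 4.50 and 10.3 over snRNAs, and 3.76 and 4.68 over lincRNAs. No library was thus a copy of another. Such values cannot show that the pools were independent. Each library was counted as 1 replicate because the study describes it so. Separate pools of embryos are not held to a value of 1, and what lies behind the excess was not tested. The miRNA values take in miR-430a-11-5p (11400, 22033 and 43013 counts), with its doubled value in replicate 3. It adds to the excess of the pairs with replicate 3, and the values were not computed without it. Pearson r of log2 CPM, the counts per 1000000 counts of the class, between libraries was 0.994 to 0.996 over 126 miRNAs, 0.968 to 0.982 over 171 clusters, 0.963 to 0.987 over 26 snRNA entries and 0.980 to 0.995 over 103 lincRNAs. These are correlations across features, which are not independent replicates, and the 26 snRNA entries held only 20 distinct sets of counts.

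The biological coefficient of variation, the spread between libraries beyond counting error as estimated by edgeR, was 0.123 for miRNAs, 0.131 for piRNA clusters, 0.187 for snRNAs and 0.111 for lincRNAs. The median SD of log2 CPM was 0.16 for miRNAs, 0.10 for piRNA clusters, 0.20 for snRNAs and 0.13 for lincRNAs. 3 of 126 miRNAs, 3 of 171 clusters, 3 of 26 snRNA entries and 1 of 103 lincRNAs differed by more than 2-fold between their highest and lowest library. The coefficient for snRNAs was 0.120 without replicate 3, and that for lincRNAs was 0.0655 without replicate 1.

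On the scale of all miRNA counts, most of them miR-430, the steadiest miRNAs were miR-16b-5p, miR-16c-5p, miR-725-5p, miR-15c-5p and miR-16c-3p. As percent of the counts outside miR-430 the order was different. There miR-25-3p held 0.463 ± 0.00467% and miR-99-5p 1.36 ± 0.0142%, a narrower relative spread than that of miR-16b-5p (0.0842 ± 0.00580%). miR-16b-5p had 111, 110 and 110 counts per 1000000 miRNA counts, on 78.5, 121 and 129 counts. miR-15c-5p had 42.6, 41.8 and 43.7, on 30, 46 and 51 counts. In this and the other classes, the steadiest entries were picked for the lowest spread, with counting error left in. On low counts such close values can arise by chance. Whether any entry was steadier than others beyond counting error was not tested. The most variable miRNAs were let-7i-5p (66.7, 30.9 and 63.4 CPM), miR-430a-11-5p with the doubled value given above, miR-204-5p, miR-182-5p and miR-194a-5p. miR-204-5p, a miRNA of eye and brain, had 621, 984 and 1366 CPM on 438, 1082 and 1595 counts, a 2.20-fold range. The other 3 rested on fewer than 100 counts in every library.

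Among piRNA clusters the coefficient of variation of density had a low median of 6.54%, and 115 of 171 clusters were under 10%. The class was not the steadiest by every measure. Its biological coefficient of variation was 0.131, against 0.123 for miRNAs, 0.111 for lincRNAs and 0.187 for snRNAs. Its largest SD of log2 CPM, 0.974, was the highest of the 4 classes. Only clusters found in all 3 libraries were kept. Cluster 210c was the steadiest, with 3924, 3952 and 3912 CPM. Cluster 276c, the eighth by density, had 1414, 1411 and 1393 counts per kb, and 241c, 275c and 294c were as steady. 2 clusters of chromosome 4 were the most variable, and in both it was replicate 1 that stood apart. Cluster 171c at chr4:42405008-42417014 had 517, 1625 and 1702 counts per kb, lowest in replicate 1. Cluster 190c at chr4:49907014-49916021 had 682, 221 and 243 counts per kb, highest in replicate 1. They were followed by 273c on chromosome 7, with 377, 611 and 755 counts per kb, then 99c and 135c.

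Among snRNAs, U5 copies of chromosome 20 moved together. U5.1 had 103, 201 and 275 counts, U5.2 had 123, 218 and 296, and U5.3 had 131, 244 and 310, a range of 2.16 to 2.44-fold in share of the snRNA counts. Whether these copies share reads was not tested, so they may not be separate observations. U5.5, also on chromosome 20, had 191, 243 and 204 counts and was the steadiest entry of all, and U5.9 on chromosome 22 had 111, 131 and 111. The copies of 1 family thus differed in spread. U12.1 and U4.29 completed the 5 most variable, and 3 of the 4 leading U1 copies were among the 5 steadiest. Those 3, U1.87, U1.63 and U1.78, had the same counts as each other and stand for 1 set of counts.

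Among lincRNAs the most variable were ENSDART00000157013.2 with 343, 694 and 612 counts, ENSDART00000134290.3 with 103, 190 and 182, ENSDART00000143042.4 with 140, 235 and 246, ENSDART00000153691.2 with 206, 379 and 277 and ENSDART00000194224.1 with 2072, 3320 and 2881. All 5 had their lowest share in replicate 1. The steadiest were ENSDART00000145772.4, ENSDART00000154396.2, ENSDART00000153316.4, ENSDART00000156123.2 and ENSDART00000152334.2. ENSDART00000153316.4 had 444, 531 and 387 counts, or 4074, 4101 and 3994 counts per 1000000 lincRNA counts.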

How the data were processed

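Small RNA libraries were made from Trizol extracts of pooled F1-C embryos. Per the labels and the study's methods, reads were trimmed with Trim Galore 0.3.7, kept at a Phred score above 30 and a length of 18 to 36 nt, and mapped to GRCz10. The authors deposited estimated counts of mature miRNAs (miRDeep2 0.0.5 and miRBase 21 with additions, with a multiply mapped read shared among its positions) and estimated counts of piRNA clusters (sRNAmapper 1.0.5, reallocate.pl 1.1 and proTRAC 4.2.4). A cluster was kept when it was found in all 3 libraries with an overlap above 50%. The deposited snRNA and lincRNA counts are raw counts over annotated spans, and the study names Unitas 1.5.2 with default settings for classifying reads, without tying it to these tables, and describes its libraries as non-directional. Their treatment of multimapping reads is not given in the sources used here. All columns were mapped to a library by name.

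Shares were taken within each table and density per kb of the deposited coordinates, with Python 3.11.15, pandas 2.3.3, numpy 2.4.6 and scipy 1.17.1. Estimated counts were rounded for the dispersion of edgeR 4.0.16 (R 4.3.3, TMM factors). The estimate was tested on simulated data with independent entries and with library totals in place of TMM factors. It was least precise there for snRNAs, the class with the fewest entries. In the data, the coefficient of snRNAs was 0.187 with TMM factors and 0.166 with library totals. No difference between groups was tested. Genes named were the leading entries of each class, members of marker lists with at least 30 counts in every library, precursors by arm choice, and the 5 steadiest and 5 most variable entries of each class, with low list members named after their values were seen. The members and lists were chosen with earlier results of these data known. The libraries are described as biological replicates of pooled embryos, and per the study's methods each came from 1 of 3 parental replicates of 30 males and 30 females. Alternatives covered denominators, count minimums, collapsed copies, scalings and each library left out.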

Additional observations from a re-analysis of the deposited data

How the results depend on the processing

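No paired analysis was possible because only 1 group was described. 89 alternative values were computed for 15 results, of which 72 stayed within 1 SD of the libraries (or within 1.5 times for counts and coefficients), 16 moved and 1 changed direction. The share of miRNA counts outside miR-430 was 14.8% with identical entries collapsed and 7.69% of the counts of all 4 tables. The share of miR-22a-3p was 3.17% of all miRNA counts. With a minimum of 100 counts there were fewer precursors to count. Of them, 24 kept more than 90% in 1 arm and 21 were 5p-dominant. These are counts, and their share of the remaining precursors was not computed. The median cluster density was 176 as raw counts per kb, 106 per 1000000 counts of the 4 tables and 522 as total counts over total length. The chromosome 4 share was 39.3% without the cluster with the most counts and 30.4% as covered length. With identical entries collapsed the U1 share was 38.0%, and the ratio of U1 to U2, added after seeing the data, turned from above 1 to 0.779. The share of the leading lincRNA was 38.6% per kb of span, and 53 lincRNAs held 90% when only those above 100 counts were kept. Without the leading lincRNA, an alternative added after seeing the data, the next held 8.08%. With each library left out, the coefficient of variation of snRNAs took values of 0.120 to 0.205 and that of lincRNAs 0.0655 to 0.143. No other count or coefficient moved past its limit. For shares, densities and ratios this check cannot show a move. The mean of the remaining libraries always lies within 1 SD of the mean of all libraries. Those values are among the 72 and do not bear on stability. The causes of the moves were not tested. Depth limits miRNA entries under 30 counts and snRNA or lincRNA entries under 100 counts, whose spread was not ranked.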
